A study of Mus musculus with 34 samples.

Results

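The transcriptome of left ventricular tissue collected 4 h after myocardial infarction (MI) was compared with that of sham hearts, in mice whose hearts received no injection. The 6 libraries were taken by their titles and labels from the 34 RNA-seq samples of the series: 3 at 4 h post-MI (mice C, D and E) and 3 sham (mice D, H and I). Of the 14552 genes listed for the 10 uninjected libraries, the 12487 with a mean of at least 1 CPM (read counts scaled by the authors to a common library size) over those 10 libraries were tested. The study injected modified mRNAs into infarcted mouse hearts. Infarcted hearts without an injection were collected at 4 h and, in 4 further libraries, at 24 h. The animals were CFW mice, an outbred Swiss stock, with no engineered allele named in any group. For MI, the left anterior descending coronary artery was tied off for good, and the ischemic part of the left ventricle, or the matching area of a sham heart, was taken for RNA. Neither age nor sex of the mice is given in the sources used here. The control libraries are titled sham but carry the label of no operation and no collection time, whereas the study's methods describe sham-operated hearts. If these mice had no surgery, surgery and infarction cannot be told apart in this comparison. A separately processed table of 24 libraries gave a second comparison with other animals: 4 hearts at 4 h post-MI whose border zone was injected after ligation with Luc modRNA, a modified mRNA for luciferase used as the control, and 2 hearts labelled as a sham operation collected at 4 h. In bulk tissue, fewer cells of a type and less RNA per cell cannot be told apart.

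When a coronary artery is closed, the heart muscle behind it loses oxygen and fuel within minutes, and cells in and around the ischemic area start signalling through stress kinases, calcium, stretch and factors released by dying cells. The first transcripts to appear are those of immediate early genes, whose promoters are poised and need no new protein. Cytokines, chemokines and endothelial adhesion molecules follow and recruit neutrophils and then monocytes, while genes of energy metabolism and contraction in the surviving myocytes respond more slowly.

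By the size of a single read in each of the 6 libraries, 1 CPM stood for 20.9 to 30.8 reads. The listed genes held an estimated 12553519 to 17589668 reads per library. These genes summed to 571617 to 644576 CPM, so the whole libraries were larger. Pearson's r of log2(CPM + 1) across genes was 0.987 to 0.992 between the 4 h libraries, 0.985 to 0.992 between the sham libraries and 0.965 to 0.980 between the groups. The ribosomal precursor Rn45s ranged from 6881 CPM in sham H to 40038 CPM in sham D. The table lists only genes with a value above 0 in all 10 libraries, and it therefore holds no gene that was silent in any one of them. Single libraries weigh on every count of calls below: leaving out sham H gave the fewest calls and leaving out 24 h G, which enters the estimate of the spread, gave the most. The summed level of 10 cardiomyocyte markers was 58750 to 64420 CPM at 4 h and 58370 to 63130 CPM in sham, so the defining markers of the labelled tissue were present at like levels in both groups. The gene nearest to the level limit from within was Sh3yl1, with a mean of 1.0001 CPM, and from outside Shpk, with 0.9993 CPM.

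At 4 h, 194 genes were higher than in sham and 102 were lower, which is 1.55% and 0.817% of the genes tested and 2.37% in either direction (limma on log2(CPM + 1), Benjamini-Hochberg q value under 0.05). The rises were the larger changes. Their median log2 fold change was 1.37, and 138 of the 194 reached a log2 fold change of at least 1, whereas the 102 falls had a median size of 0.68 and 12 of them reached 1 in size. Genes that rose were short, with a median genomic span of 10.6 kb against 22.5 kb for all genes tested. Levels were taken as means over the 10 uninjected libraries, so the raised values themselves enter them. The median level was 28.9 CPM for the rises and 15.1 CPM for all genes tested. Genes that fell had a median span of 19.2 kb and a median level of 7.50 CPM. Both groups of genes had libraries that did not overlap between 4 h and sham, which held for 10.9% of all genes upwards and 18% downwards. An unadjusted p under 0.05 by limma was found for 2058 of the 12487 genes tested. The split of the calls depends on the scaling of the libraries: 175 genes were higher and 173 lower when each library was set to the same total in place of the authors' factors. Single libraries moved the falls most: the count was 6 without sham H, 10 without 4 h C, 16 without sham I, 19 without 4 h D, 52 without 4 h E, 55 without sham D, 66 without 24 h H, and 283 without 24 h G. The rises numbered 99 without sham H, 115 without sham I, 116 without 4 h C, 119 without 4 h D and 277 or fewer in the other fits. Whichever library was left out, 94 of the rises and 6 of the falls (Ahrr, Cpxm2, Mapk4, Rsrp1, Zfp866 and Zscan26) were called in each of the 10 fits. The named genes among the 94 include Atf3, Fos, Il6, Socs3, Cxcl1, Thbs1, Cyr61 and Ctgf.

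Among the functional classes, the list of immediate early transcription factors had the highest share of calls and the highest median. Of 26 tested, 17 rose and none fell, a share of 65.4% against 1.55% of all genes, and the median log2 fold change of the list was 1.74 against -0.03 for all genes. Atf3, a stress-induced repressor of the ATF/CREB family (chr1:191170297-191183334), was at 185.0, 249.2 and 248.2 CPM in 4 h C, D and E and at 6.08, 4.64 and 2.50 CPM in sham D, H and I. It gained 5.45 ± 0.27 (SE) on the log2 scale (limma q = 9.1e-07), the largest change of any gene tested. Fos, the partner of Jun in the AP-1 dimer (chr12:85473901-85477271), was at 171.8, 203.2 and 246.9 CPM against 5.89, 10.8 and 14.7 CPM (log2 fold change 4.25 ± 0.35, limma q = 5.2e-05). Junb, another AP-1 subunit, stood at 71.9, 75.1 and 73.8 CPM against 8.46, 11.3 and 13.8 CPM, so its infarct libraries lay within a few percent of each other. Among the other members that rose, the zinc finger factor Egr1 gained 3.03, the orphan nuclear receptor Nr4a1 2.90, the antiproliferative gene Btg2 2.45 and Jun itself 1.73. Sham I held the highest sham value of Fos, Egr1 and Nr4a1, at 60.1 CPM for Egr1 and 26.3 CPM for Nr4a1, and still lay below every 4 h library. The rise did not extend to every member of the AP-1 and Nr4a families: Jund was at 36.3, 29.7 and 39.5 CPM against 29.9, 29.5 and 24.0 CPM (q = 0.24 by limma) and Nr4a2 stayed at or under 1.96 CPM in all 6 libraries. Srf, the factor that drives many immediate early genes, had a log2 fold change of -0.04. Leaving out any one library left 16 or 17 of the 26 called.

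**Figure D1:**
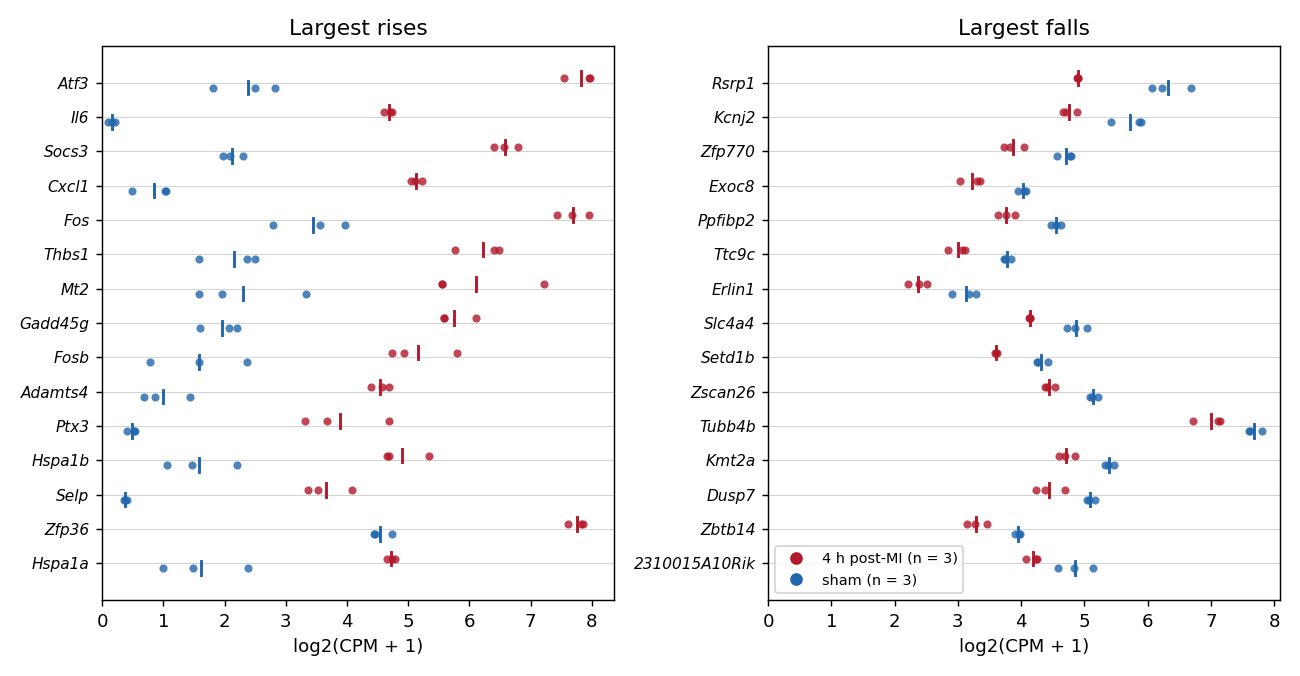
log2(CPM + 1) in each of the 3 libraries at 4 h post-MI (red) and the 3 sham libraries (blue), 1 point a library with a bar at the group mean, for the 15 largest rises and 15 largest falls among genes with a q value under 0.05 and a mean of at least 10 CPM. The points of the groups are far apart for the rises, Atf3 at the top, and close but not overlapping for the falls.

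Several inhibitors of the early response were also among the genes that rose. Zfp36, whose protein binds AU-rich elements and speeds the decay of cytokine and early gene mRNAs, was at 195.1, 230.4 and 224.5 CPM against 20.7, 20.9 and 25.5 CPM (log2 fold change 3.22 ± 0.21, limma q = 1e-05), and it was the only 1 of 13 AU-rich decay factors called. In MAP kinase feedback, 3 of 16 rose and 1 fell, beside 1.55% and 0.817% of all genes. Errfi1, an inhibitor of the EGF receptor, gained 2.48 and Spry4 1.24, whereas the ERK phosphatase Dusp7 went from 32.0, 34.9 and 32.7 CPM in sham to 17.9, 19.9 and 24.9 CPM at 4 h (log2 fold change -0.66, limma q = 0.014). Dusp1, the classical early phosphatase, had values of 129.9 to 170.2 CPM against 48.2 to 72.5 CPM and did not pass the test (q = 0.08). The growth arrest genes Gadd45g, Gadd45b and Gadd45a rose by 3.8, 2.73 and 1.38, and 4 of 21 members of the growth arrest and p53 target list were called. The fourth, the cell cycle inhibitor Cdkn1a, was at 75.7, 89.0 and 56.7 CPM at 4 h and at 5.61 and 5.62 CPM in sham H and I but at 36.9 CPM in sham D. Its log2 fold change of 2.64 carried an SE of 0.55 and a limma q of 0.031, and it lost the call in 6 of the 10 fits that left out 1 library. Of 13 Kruppel-like factors 2 rose (Klf6 1.16 and Klf4 0.75), and of 33 other inducible transcription factors 5 rose, led by Myc (2.76) and Cebpd (2.58). Spry4 lost the call in 7, Klf4 in 6 and Dusp7 in 4 of the 10 fits that left out 1 library.

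Promoter sequences from RefSeq (GRCm38.p6) were searched for the binding motifs usually linked to this class of genes, in the 250 bases before the start, on both strands. Of the genes tested, 9690 had a promoter in the reference table, and so had 142 of the 194 that rose and 80 of the 102 that fell. The cAMP response element TGACGTCA was found before 7.04% of the genes that rose, 2.50% of those that fell and 3.01% of all genes. The AP-1 motif, TGACTCA or TGAGTCA, was found before 10.6%, 3.75% and 4.15%, and the 10-base NF-kB site before 17.6%, 5.0% and 10.7%. The CArG box, which the serum response factor binds, was present before 4 of the 142 genes that rose, none of the 80 that fell and 1.47% of all genes. The TATA box TATAAA stood in 15.5%, 6.25% and 8.27%, and no match to the heat shock element was found in either called group (0.495% of all genes). That element was searched only as a perfect run of alternating GAA and TTC units at fixed spacing. Imperfect elements, or any beyond the 250 bases, were not counted. A match says only that the letters are there. The windows below are examples from early, inflammatory and fibrinolysis genes that rose, each shown 5′ to 3′ on the strand of its gene with the motif in capitals to show how the letters sit before genes described in this text. The first is a cAMP response element before Btg2 (chr1:134079304-134079331), the second one before Errfi1 (chr4:150855009-150855036), the third an AP-1 motif before Plaur (chr7:24462404-24462431), the next a CArG box before Zfp36 (chr7:28379268-28379295), and the last 3 are NF-kB sites before Il6 (chr5:30013061-30013088), Cxcl1 (chr5:90891165-90891192) and Nfkbia (chr12:55492658-55492685).
Btg2: ttcccaataaTGACGTCAgtgagcgatg
Errfi1: ctgcgggcgtTGACGTCAcgttgtcgct
Plaur: cccctggagcTGACTCActctttagcaa
Zfp36: caggccgccCCATAAAAGGagaaagctc
Il6: atcaaatgtGGGATTTTCCcatgagtct
Cxcl1: ctgtactccGGGAATTTCCctggcccgg
Nfkbia: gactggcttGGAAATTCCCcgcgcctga

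Among inflammatory signals, single ligands and several feedback inhibitors passed the test, while the IL-6, NF-kB and IL-1 lists had medians from 0.18 to 0.32, above the -0.03 of all genes. Of 7 IL-6 family ligands, Il6 alone was called, 3 had an unadjusted p under 0.05, all higher, and 3 were called in a model of the 6 libraries alone. Il6 (chr5:30013114-30019976) was at 25.1, 25.6 and 23.3 CPM against 0.0723, 0.121 and 0.163 CPM, the latter a handful of reads in each library (log2 fold change 4.52 ± 0.24, limma q = 1.5e-06). Its relative Lif reached 0.865 to 1.28 CPM (log2 fold change 0.55). Downstream, Socs3, the feedback inhibitor of the shared gp130 receptor (chr11:117966087-117969367), was at 93.3, 109.8 and 83.9 CPM against 3.94, 2.95 and 3.25 CPM (4.46 ± 0.18, limma q = 3.5e-07), and Pim1, Bcl3 and Socs2 gained 1.5, 1.36 and 0.89. These 4 of 22 receptor and feedback genes were the called ones, and the receptor Osmr was not among them (0.68, q = 0.18). Within the NF-kB list 5 of 20 rose (25.0%, beside 1.55% of all genes), among them Nfkbiz (2.47) and the inhibitors Tnfaip3 (1.64) and Nfkbia (1.47). The median of the list was 0.32, 19 of the 20 lay above 0, 14 had every 4 h library above every sham library, and 9 had an unadjusted p under 0.05. Over all 12487 genes tested, 10.9% had every 4 h library above every sham library and 2058 had an unadjusted p under 0.05. Il1b, the secreted interleukin, was at 4.02, 7.61 and 5.38 CPM against 0.289, 0.484 and 0.455 CPM (2.21 ± 0.34, limma q = 0.0051), and the receptor Il1r1 rose by 1.01. Ptgs2, the inducible cyclooxygenase, was the only called gene of 15 in prostaglandin and leukotriene synthesis (2.68).

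The chemokines that rose were those that draw neutrophils and monocytes. Cxcl1 (chr5:90891245-90893116), a ligand of the neutrophil receptor Cxcr2, was at 31.9, 36.3 and 33.6 CPM against 0.398, 1.05 and 1.04 CPM (4.28 ± 0.23, limma q = 1.7e-06). Cxcl2 rose by 2.87 and Cxcl5, of the same receptor, by 2.16, the latter with 12.8 CPM in 4 h D and 2.29 and 2.25 CPM in 4 h C and E. These were 3 of 12 CXC and CX3C chemokines (25.0%, beside 1.55% of all genes). Of 10 CC chemokines, the monocyte attractants Ccl2 and Ccl7 were called, and both were called in all 10 fits that left out 1 library. All 10 had log2 fold changes above 0, with a median of 0.82, 6 did not overlap with sham and 6 had an unadjusted p under 0.05. Over all 12487 genes tested, 10.9% lay above sham without overlap and 2058 had an unadjusted p under 0.05. The count of CC chemokines called was 5 with the 6 libraries alone or without 24 h G, 4 under equal totals and 3 without 24 h C. The second comparison called 5 of 10. Ccl2 went from 1.21 to 1.41 CPM in sham to 12.8, 14.9 and 11.1 CPM (2.59, limma q = 1.8e-05). Neutrophil markers themselves were low. None of 10 tested passed by limma (4 at an unadjusted p under 0.05, all higher, and 0 by limma-voom). Yet 9 of these markers had 4 h libraries all above sham, against 10.9% of all genes, and the median log2 fold change was 1.0. The level limit used the mean of all 10 libraries, so neutrophil markers and chemokines could pass it through high 24 h values. Their shares without overlap therefore describe the lists and carry no test. The summed level of the neutrophil markers was 9.21 to 38.6 CPM at 4 h, 2.27 to 3.90 CPM in sham and 373.6 to 2188 CPM at 24 h, with Camp, Elane and Mpo not listed and Ly6g, Ngp and Ltf under a mean of 1 CPM. S100a9 was at 2.97, 11.8 and 9.79 CPM against 0.470, 0.363 and 0.390 CPM (2.54, q = 0.072). Monocyte markers summed to 94.4 to 120.2 CPM against 66.3 to 130.8 CPM, and resident macrophage markers to 192.5 to 244.2 CPM against 195 to 293.1 CPM, so these groups overlapped. The part of these cells in the chemokine and cytokine values was not tested.

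No interferon response was called in the uninjected hearts. Of 38 interferon-stimulated genes, 0 were higher and 0 lower by limma, none had an unadjusted p under 0.05 and limma-voom called 0, and their median log2 fold change was -0.17. Ifit1, an antiviral RNA-binding protein, was at 2.67, 4.19 and 2.94 CPM against 3.59, 5.28 and 4.75 CPM (-0.38, q = 0.61). In the second comparison 5 of the 38 rose, with a median of 0.98, and Ifit1 had a log2 fold change of 3.92 there (limma q = 0.00038). Isg15, a ubiquitin-like modifier, had -0.21 in the uninjected and 3.14 in the injected hearts, and Oasl1 0.25 and 3.64. The infarcted hearts of the second comparison differed from the uninjected ones in the injection, the controls, the animals and the processing, which cannot be told apart here.

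**Figure D2:**
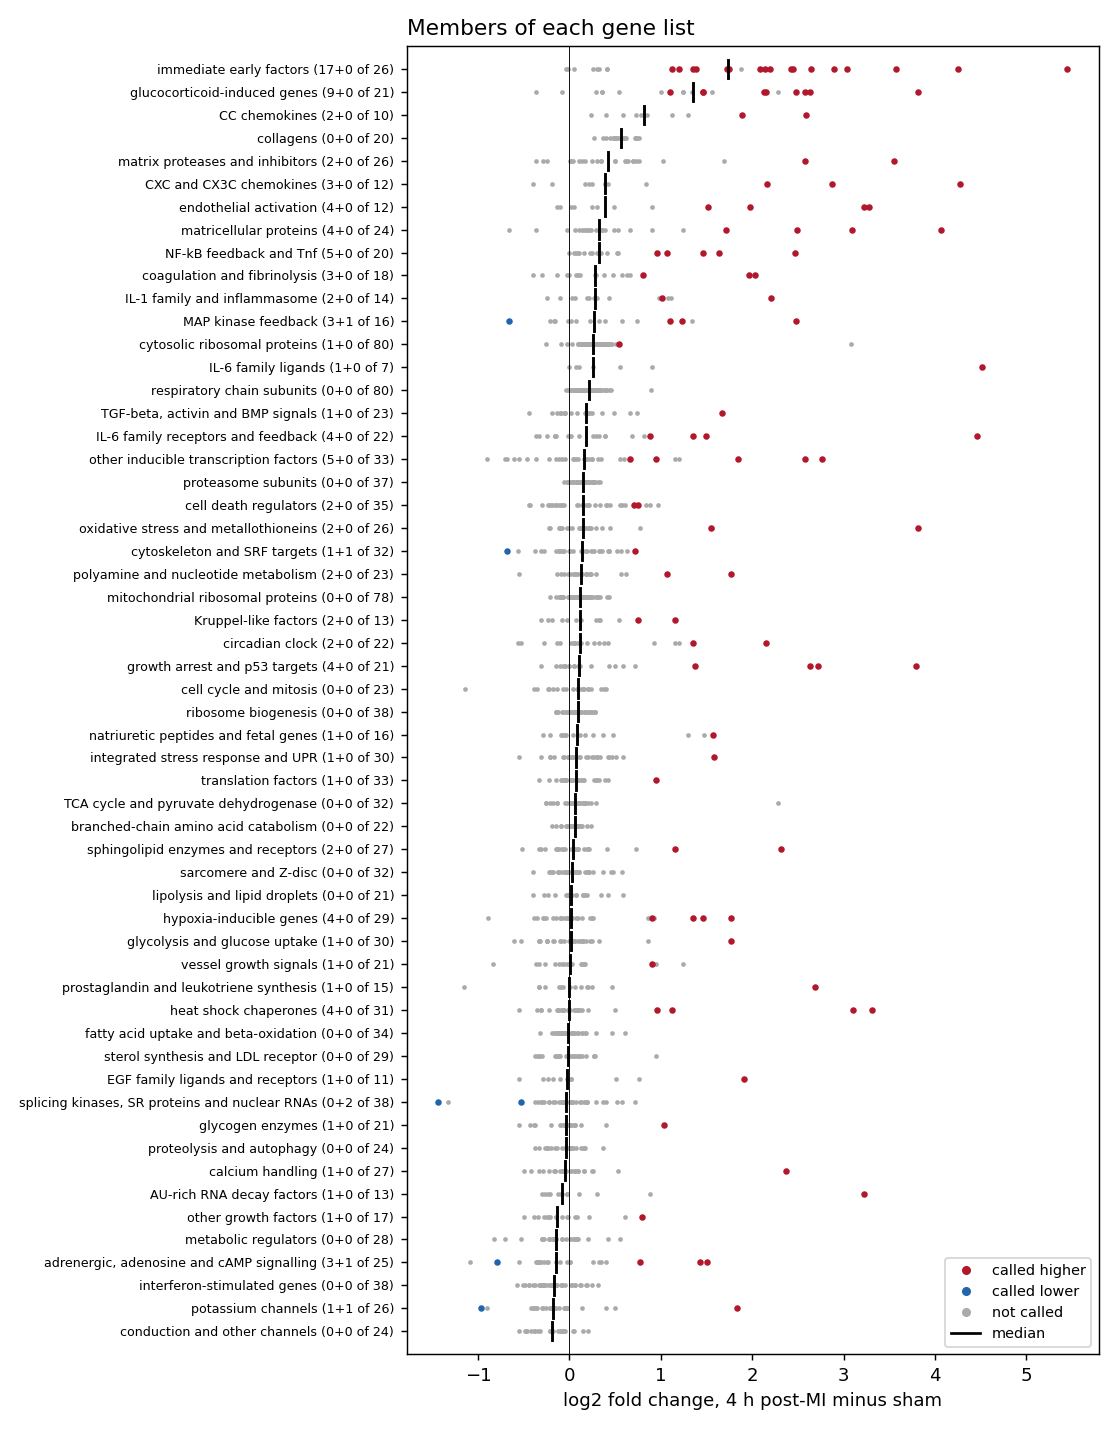
Log2 fold change, 4 h post-MI minus sham, of each tested member of the gene lists, 1 point a gene, coloured by whether the gene was called higher, called lower or not called, with a bar at the list's median and, after each name, the counts called higher and lower of those tested. Immediate early factors lie farthest to the right with a median of 1.74. The fatty acid, TCA cycle and sarcomere lists have medians of -0.02, 0.06 and 0.03. Respiratory chain subunits (median 0.21) and cytosolic ribosomal proteins (0.26) lie mostly above 0, at 78 and 77 of 80 genes.

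Endothelial adhesion and the clotting system were changed at few but strongly induced genes. Of 12 endothelial activation genes, 4 rose (33.3%, beside 1.55% of all genes). Selp, the P-selectin that lets leukocytes roll on the vessel wall (chr1:164115264-164150027), was at 9.29, 16 and 10.5 CPM against 0.325, 0.282 and 0.293 CPM (3.28 ± 0.31, limma q = 0.00014). Sele, the E-selectin, gained 3.23, the integrin ligand Icam1 1.52 and the granulocyte growth factor Csf3 1.98, whereas Vcam1 was at 14.1, 14.9 and 16.8 CPM against 8.57, 14.2 and 14.9 CPM and was not called. Of 18 coagulation and fibrinolysis genes, 3 rose (16.7%), among them Plaur, the urokinase receptor, by 2.03 and Plat, the tissue plasminogen activator, by 0.81. Tissue factor, F3, was at 13.7 to 16.5 CPM against 13 to 16.9 CPM. In the sphingosine 1-phosphate system, which governs endothelial barrier and lymphocyte exit, the kinase Sphk1 rose by 2.32 and the receptor S1pr1 by 1.16. They were 2 of 27 genes (7.41%). Of 12 endothelial identity markers only the tight junction gene Cldn5 was called (0.79), and the summed level of the list was 784.6 to 1035 CPM against 816.5 to 870.8 CPM. Vegfa, the main vascular growth factor, was at 196.9, 258.1 and 193.8 CPM against 306.9, 218.3 and 175.9 CPM, and of 21 vessel growth signals Adm alone rose (0.91).

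Of the matrix genes, matricellular and protease genes rose, and no collagen was called. Of 24 genes in the list of matricellular proteins, which also holds fibronectin, elastin and the hyaluronan synthases, 4 rose (16.7%, beside 1.55% of all genes). Thbs1, thrombospondin 1, an activator of latent TGF-beta (chr2:118111876-118127134), was at 53.4, 88.8 and 83.1 CPM against 4.16, 4.64 and 1.98 CPM (4.07 ± 0.32, limma q = 3.7e-05). Cyr61 was at 401.4, 352.9 and 375.9 CPM against 41.9, 39.5 and 48.5 CPM (3.10 ± 0.13, limma q = 3.5e-07), Ctgf, of the same CCN family, rose by 2.49 and the hyaluronan synthase Has1 by 1.71. Among 26 proteases and inhibitors, the proteoglycan-cleaving Adamts4 and Adamts1 rose by 3.55 and 2.58 (7.69% of the list), and Timp1 did not pass (1.02, q = 0.094). None of 20 collagens was called by limma in the 10-library model, although the list's median was 0.56. All 4 h libraries were above sham for 13 of the 20, against 10.9% of all genes. At an unadjusted p under 0.05 there were 11 collagens, all higher, beside 2058 of the 12487 genes tested, and limma-voom called 0 collagens. A model of the 6 libraries alone called 8 of them, and leaving out 1 library at a time gave between 0 and 2. Col4a1, of the basement membrane, was at 730.8, 496.9 and 562.9 CPM against 479.4, 286.1 and 337.5 CPM. Fibroblast markers moved the same way, with a summed level of 2853 to 3162 CPM against 1913 to 2448 CPM, and none of 12 was called by limma or limma-voom (5 at an unadjusted p under 0.05). Their part in the collagen values was not tested.

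In the growth factor lists 1 gene each rose, a share of 4.35% to 9.09% beside 1.55% of all genes. Hbegf, the heparin-binding EGF ligand, was at 47.1, 95.2 and 67.8 CPM against 18.9, 17.2 and 15.6 CPM (1.91 ± 0.20, limma q = 0.00044), the only called gene of 11 in the EGF family. Inhbb, the beta B subunit of activin and inhibin, rose by 1.67 and was 1 of 23 genes of TGF-beta, activin and BMP signalling, and Igf2 rose by 0.79, 1 of 17 other growth factors. In adrenergic, adenosine and cAMP signalling 3 of 25 rose and 1 fell. The cAMP phosphodiesterase Pde4b was at 87.2, 110.8 and 100.6 CPM against 38.2, 37.2 and 32.9 CPM (1.43 ± 0.12), the CREB-coactivator kinase Sik1 gained 1.51 and the adenosine receptor Adora2b 0.78. The falling gene was Adrb1, the main beta-adrenergic receptor of the myocyte, at 6.24, 6.37 and 8.63 CPM against 13.3, 12 and 13.3 CPM (-0.79, limma q = 0.042). Adrb1 lost the call in 5 of the 10 fits that left out 1 library, and Adora2b and Igf2 each lost it in 6.

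In the chaperone, integrated stress, oxidative stress and cell death lists, 3.33% to 12.9% of members rose, beside 1.55% of all genes. Of 31 heat shock chaperones 4 rose (12.9%) while the list's median was -0.01. Hspa1b and Hspa1a, nearly identical inducible HSP70 genes between which reads cannot be firmly divided (chr17:34956429-34959239 and chr17:34969359-34972157), rose by 3.31 and 3.10. Hspa1b was at 24.7, 24.1 and 39.7 CPM against 3.6, 1.78 and 1.09 CPM. The small chaperone Hspb1 gained 1.12 and the HSP70 partner Dnajb1 0.96 (limma q = 0.049), and Hsph1 had a log2 fold change of -0.31. Leaving out any one of the 3 libraries at 4 h, sham H or sham I left 2 called and lost Hspb1 and Dnajb1. Of 30 genes of the integrated stress and unfolded protein responses, only Ppp1r15a, which reverses the block of translation, rose (1.59), and Ddit3 and Trib3 were at 0.20 and -0.07. In oxidative stress 2 of 26 rose. Mt2, a metal-binding metallothionein, was at 45.7, 148.4 and 45.8 CPM against 9.11, 2.90 and 1.98 CPM (3.81 ± 0.55, limma q = 0.0037), and the heme-degrading enzyme Hmox1 at 14.1, 35.8 and 12 CPM against 6.08, 4.92 and 5.79 CPM (1.55, limma q = 0.03). For both, 4 h D was the highest library and the other infarct libraries were close to each other. Mt2 was called in all 10 fits that left out 1 library and Hmox1 lost the call in 5. Of 35 cell death regulators Ripk1 and Tnfrsf10b rose, by 0.75 and 0.71, but neither was called under equal totals, and Ripk1 lost the call in 5 and Tnfrsf10b in 8 of the fits that left out 1 library.

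Genes induced by glucocorticoids, the adrenal stress hormones, formed the list with the second highest share of calls among the functional classes, 9 of 21. That share was 42.9%, beside 1.55% of all genes, and the median log2 fold change was 1.35. All 9 also answer to other signals, and 5 are described elsewhere in this text (Mt2, Errfi1, Cebpd, Nfkbia and Cdkn1a). Per1, a clock gene with glucocorticoid response elements, was at 86.8, 85.1 and 50.9 CPM against 7.52, 23.5 and 20.3 CPM (2.15 ± 0.46, limma q = 0.034). Ddit4, an inhibitor of mTORC1, was at 39.8, 52.3 and 36.7 CPM against 24.2, 13 and 10.1 CPM (1.46 ± 0.31, limma q = 0.034). Per1 and Ddit4 each lost the call in 5 of the 10 fits that left out 1 library. Sgk1, a kinase of ion transport, gained 1.10 and the siderophore-binding Lcn2 2.13. Other textbook members did not pass: Fkbp5 was at 23.3, 47.3 and 12.9 CPM against 34.5, 7.06 and 6.08 CPM, and Tsc22d3 had a log2 fold change of 0.35. Sham D was the highest of the sham libraries for Fkbp5, Ddit4, Cdkn1a and Pdk4, and the lowest for Per1. Leaving out 1 library at a time left between 4 and 12 of the 21 called, with 4 when any one of 4 h C, 4 h D, sham H or sham I was left out and 12 without 24 h D. In the second comparison, whose controls carry the label of a sham operation at 4 h, 6 members rose and the median was 0.48, and Per1, Ddit4 and Sgk1 had log2 fold changes of 0.08, -0.53 and -0.09. The difference between the comparisons was not tested.

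The lists of energy metabolism held from 0 to 2 called genes each, and the hypoxia-inducible list held more. Of 29 hypoxia-inducible genes 4 rose (13.8%, beside 1.55% of all genes), with a median of 0.02 over the list. They were Pfkfb3, which makes the activator of glycolysis fructose 2,6-bisphosphate (1.77), Ddit4, the clock repressor Bhlhe40 (1.35) and Adm. Bhlhe40 was at 151.9, 161.5 and 151.7 CPM against 53.3, 56.6 and 72.1 CPM, the tightest of these. The glucose transporter Slc2a1 was at 11.3, 19.9 and 13.8 CPM against 12.6, 10.9 and 14 CPM, hexokinase 2 (Hk2) had a log2 fold change of 0.02 and lactate dehydrogenase A (Ldha) 0.13. Pfkfb3 was the only called gene of 30 in glycolysis, and it lost the call in 6 of the 10 fits that left out 1 library, as did Adm. The count of called genes was 0 by limma among 34 of fatty acid uptake and beta-oxidation, 32 of the TCA cycle, 80 subunits of the respiratory chain, 28 metabolic regulators and 29 of sterol synthesis, with medians of -0.02, 0.06, 0.21, -0.15 and -0.02. At an unadjusted p under 0.05, these lists held 1, 1, 18, 4 and 2 genes, the 18 of the respiratory chain all higher, and limma-voom called 0 in each. Of all 12487 genes tested, 2058 had an unadjusted p under 0.05. Pdk4, the kinase that closes pyruvate dehydrogenase, was at 772.4, 1395 and 635.6 CPM against 463.6, 93.9 and 133.2 CPM, did not overlap with sham and missed the threshold (2.29 ± 0.59, q = 0.083). In polyamine and nucleotide metabolism 2 of 23 rose, Sat1, the rate-limiting enzyme of polyamine breakdown (1.77), and the uridine-cytidine kinase Uck2 (1.07). Sat1 lost the call in 3 and Uck2 in 8 of the 10 fits that left out 1 library.

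The lists of contractile and electrical genes of the myocyte held from 0 to 2 called members each, beside 2.37% of all genes called in either direction. None of 32 sarcomere and Z-disc genes passed by limma or limma-voom, with a median of 0.03. At an unadjusted p under 0.05 there were 2, beside 2058 of the 12487 genes tested. Myh7, the slow myosin heavy chain, was at 1072, 1069 and 1056 CPM against 1091, 1086 and 1150 CPM. Among the natriuretic peptides and fetal genes, 1 of 16 rose: Xirp1, an actin-binding protein of the intercalated disc, at 466.0, 723.8 and 560.1 CPM against 203.1, 195.3 and 181.5 CPM (1.57 ± 0.19, limma q = 0.0011). The natriuretic peptides Nppa and Nppb, markers of wall stress, did not pass, with Nppb at 197.8, 309.6 and 134.5 CPM against 166.7, 58.4 and 38.2 CPM and sham D again the highest control. Of 26 potassium channel genes 1 fell and 1 rose. Kcnj2, which carries the inward rectifier current of the resting potential (chr11:111066164-111076826), was at 28.4, 24.4 and 25.2 CPM against 41.8, 57.1 and 58.3 CPM (-0.97 ± 0.17, limma q = 0.012), and the channel subunit Kcne4 gained 1.84. Kcnj2 lost the call without 4 h D, sham H or sham I, and Kcne4 lost it in 4 of the 10 fits that left out 1 library. In calcium handling 1 of 27 was called, Casq1, the calsequestrin of fast skeletal muscle, at 102.1, 133.0 and 182.8 CPM against 22.0, 53.9 and 13.5 CPM (2.37 ± 0.50, limma q = 0.033). Casq1 lost the call in 5 of the 10 fits that left out 1 library, and skeletal muscle markers summed to 30.1 to 49.9 CPM at 4 h and 22.3 to 66.4 CPM in sham.

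Genes of the translation machinery had medians slightly above that of all genes. Of 80 cytosolic ribosomal protein genes, Rpl35a alone was called (0.54), a share of 1.25% beside 1.55% of all genes, and Rpl35a lost the call under equal totals and in 8 of the 10 fits that left out 1 library. At the same time 28 of the 80 had an unadjusted p under 0.05, all higher, beside 2058 of the 12487 genes tested. In 45 every 4 h library was above every sham library, beside 10.9% of all genes, and the list's median was 0.26. Of 78 mitochondrial ribosomal protein genes and 37 proteasome subunits none was called by limma or limma-voom (4 and 8 at an unadjusted p under 0.05, all higher), and the medians were 0.12 and 0.15. The median over all genes moved by 0.05 upwards under median-ratio scaling and by -0.02 under equal totals. Counts of called members were 0 by limma and limma-voom for the 38 genes of ribosome biogenesis and the 23 of cell cycle and mitosis, of which 2 and 1 had an unadjusted p under 0.05.

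Few of the genes that fell belonged to the lists. Of the 102, 6 were in a list, 4 of them (Dusp7, Adrb1, Kcnj2 and Tubb4b) in one that also held a rise, and 38 more in 1 of 3 classes defined after the falls had been seen. The largest of these classes comprised the zinc finger genes with symbols beginning with Zfp, Zkscan or Zscan, without the Zfp36 family. Most such genes code for C2H2 zinc finger proteins that bind DNA, many of them with a KRAB domain that recruits a silencing complex. Of 326 tested, 31 were lower (9.51%, against 0.817% of all genes) and 0 higher by limma, and they made up 30.4% of the falls. Limma-voom called 25 lower and 0 higher. At an unadjusted p under 0.05 there were 156 lower and 0 higher, beside 2058 of the 12487 genes tested. The median log2 fold change of the class was -0.33, and 286 of the 326 lay below 0, against 6935 of all 12487 genes. In 179 members every 4 h library was below every sham library, which held for 18% of all genes. The summed level of the class was 3271, 3319 and 3503 CPM in 4 h C, D and E and 4103, 4298 and 4074 CPM in sham D, H and I, a ratio of means of 0.809 with no overlap. The summed level in the 24 h libraries was 3328, 3388, 4246 and 3756 CPM. The count of called members depends on the libraries, at 2 without sham H, 3 without 4 h C, 5 without sham I, 8 without 4 h D, 9 without sham D, 16 without 4 h E, 20 without 24 h H and 63 without 24 h G, and was 79 in a model of the 6 libraries alone. Called members were spread over the genome, with 7 of 75 tested on chromosome 7, 6 of 42 on chromosome 17 and 5 of 35 on chromosome 13. Since the class was chosen for its falls, these counts describe it and carry no test.

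**Figure D3:**
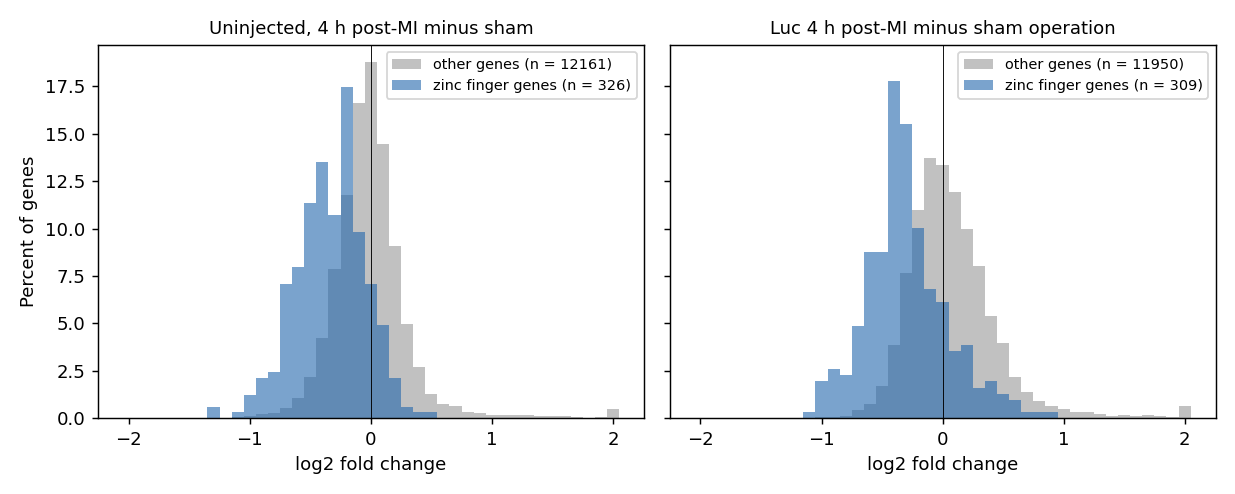
Distribution of log2 fold changes (y axis, percent of genes) of the zinc finger class and of all other tested genes, in the uninjected comparison and in the second comparison, with values beyond 2 in size drawn at the edge. The class lies to the left of the other genes in both panels, with medians of -0.33 and -0.34.

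Among single zinc finger genes, Zfp866 (chr8:69761324-69774912) had the smallest q value of any fall, at 4.25, 5.17 and 5.30 CPM against 13.7, 14.6 and 12.5 CPM (-1.31 ± 0.12, limma q = 0.00014). Zfp60 was at 2.42, 3.27 and 4.62 CPM against 9.64, 10.3 and 9.34 CPM (-1.31, limma q = 0.013), and Zscan26 at 19.7, 22.3 and 20.2 CPM against 33.1, 36.2 and 33.7 CPM (-0.70 ± 0.09, limma q = 0.002). Zfp866 and Zscan26 are among the 6 falls that every fit leaving out 1 library called, and Zfp866 and Zfp60 were named after their values were seen. The 31 called members had log2 fold changes from -1.31 to -0.49. In the second comparison, with other animals, 309 members were tested, of which 19 were lower and 1 higher, with a median of -0.34, and the summed level was 3089 to 3315 CPM in infarcts and 3577 and 3869 CPM in sham operation. Of the 31 genes, 30 lay below 0 there and 5 were called lower, among them Zfp870 (-1.06, limma q = 0.0017) and Zfp626 (-1.03, limma q = 0.019). Zfp142 was the exception, at 0.57.

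The other classes that were defined from the falls were smaller. Of 54 histone methyl- and acetyltransferases and demethylases 5 fell (9.26%, beside 0.817% of all genes), with a median of -0.12. Setd1b, a histone H3 methyltransferase of the COMPASS family, was at 11, 11.3 and 11.2 CPM against 18.3, 18 and 20.4 CPM (-0.71 ± 0.13, limma q = 0.017), Kmt2a fell by 0.67 on the log2 scale and Rbbp5, a subunit of the same complexes, by 0.58. None of the 54 was called in the second comparison (median -0.08), and leaving out 4 h C or sham H left 0 of the 5 called. Of 38 Zbtb genes, Zbtb14 and Zbtb45 fell (-0.66 and -0.55), a share of 5.26%. In the list of splicing kinases, SR proteins and nuclear RNAs, 2 of 38 fell (5.26%). Rsrp1, an arginine and serine rich nuclear protein (chr4:134923625-134927371), was at 28.5, 28.7 and 28.9 CPM against 101.8, 74.2 and 66.0 CPM (-1.44 ± 0.20, limma q = 0.003), and the splicing factor Rbm5 fell by 0.53 on the log2 scale. The nuclear RNA Neat1 was at 136.1, 279.8 and 196.1 CPM against 364.5, 575.2 and 568.8 CPM and missed the threshold (-1.33, q = 0.052). The bicarbonate transporter Slc4a4 fell by 0.74 on the log2 scale, and in the cytoskeleton list the tubulin gene Tubb4b fell by 0.68, from 196.2, 192.4 and 223.7 CPM in sham to 104.6, 141.1 and 137.8 CPM. The largest fall of any tested gene was that of Cpxm2, at 1.20, 1.15 and 1.20 CPM against 4.41, 5.32 and 8.48 CPM (-1.65 ± 0.27, limma q = 0.0085). It is named here after its values were seen, as is Ahrr, the repressor of the aryl hydrocarbon receptor, which fell by 1.43.

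Globin transcripts, which come from red cell precursors and reticulocytes in blood, were higher at 4 h. All 6 listed globin genes rose, with log2 fold changes from 1.28 (Hba-a1) to 1.59 (Hbb-b1), and leaving out 1 library at a time left between 0 and 6 of them called. Their summed level with Alas2 was 786.8, 647.0 and 1138 CPM in 4 h C, D and E and 358.0, 225.1 and 350.8 CPM in sham D, H and I. The 6 are not independent, since Hbb-bt and Hbb-b2 carry identical values and Hbb-bs and Hbb-b1 a fixed ratio. Erythroid Alas2, the first enzyme of heme synthesis, was at 8.42, 7.95 and 15.1 CPM against 4.45, 3.67 and 5.79 CPM and was not called, and Slc4a1 is not listed. In the second comparison 2 of the 7 were called, Hba-a1 (3.0) and Hba-a2 (2.84). The part of retained blood in the other rises was not tested. Of the remaining cell types, mural markers summed to 1102 to 1196 CPM against 1126 to 1284 CPM and atrial markers to 138.5 to 208.8 CPM against 111.5 to 318.9 CPM, and the lymphocyte list, of which 1 gene passed the level limit, summed to 4.96 to 8.01 CPM against 2.13 to 3.77 CPM. Mesothelial and adipocyte markers were at 8.12 to 8.71 against 5.0 to 6.36 CPM and at 11.9 to 15.4 against 8.27 to 11.1 CPM.

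**Figure D4:**
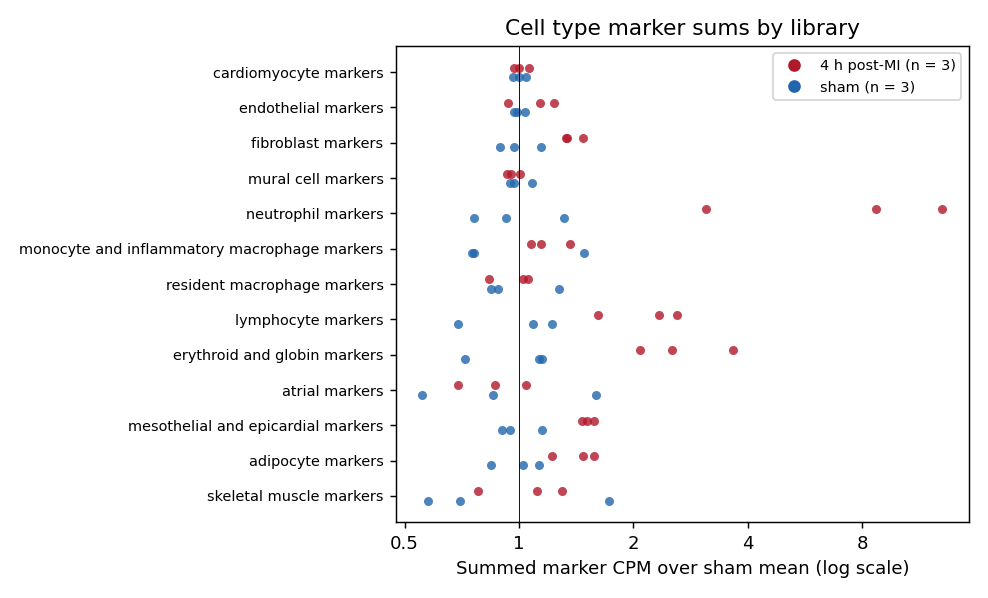
Summed CPM of each cell type's markers divided by the mean of the sham libraries, on a log axis, in the 3 libraries at 4 h post-MI and the 3 sham libraries, 1 point a library. Cardiomyocyte, endothelial, mural, atrial and macrophage markers overlap between the groups, whereas neutrophil (9.21 to 38.6 against 2.27 to 3.90 CPM), fibroblast, globin, lymphocyte, mesothelial and adipocyte markers do not.

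The second comparison, which shares no animal with the first, was used to look at the same genes in other hearts. It called 157 of 12555 genes higher (1.25%) and 37 lower (0.295%). Of the 194 genes that rose in uninjected hearts, 193 were tested there, 181 of them (93.8%) were above 0 and 71 were called higher, and the median log2 fold change was 1.37 in the first and 1.22 in the second comparison. Among all 12259 genes tested in both, 52.8% were above 0. Of the 102 genes that fell, 73 (71.6%) were below 0, against 47.2% of all genes, 6 were called lower and the median was -0.24. No gene was called in opposite directions. Fos had log2 fold changes of 4.25 and 5.37, Atf3 of 5.45 and 4.95, and Ccl2 of 2.59 and 4.20. Of the 137 tested genes that gained at least 1 in uninjected hearts, 131 were above 0 in the second comparison and 9 had a value under 0.25, namely Ddit4, Casq1, Stc1, S1pr1, Sgk1, Fam46a, Ctgf, Irf2bp2 and Per1. Ctgf is an example: 485.6, 681.8 and 302.2 CPM against 87.0, 95.7 and 65.3 CPM in the first comparison (2.49 ± 0.28, limma q = 0.00079) and a log2 fold change of 0.02 in the second. Its relative Cyr61 had 3.10 and 1.21, the latter not called (q = 0.22). Vegfa showed the reverse, with -0.09 in uninjected hearts and 1.43 in the second comparison (limma q = 0.0029). The 2 tables were normalized separately and these differences were not tested.

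**Figure D5:**
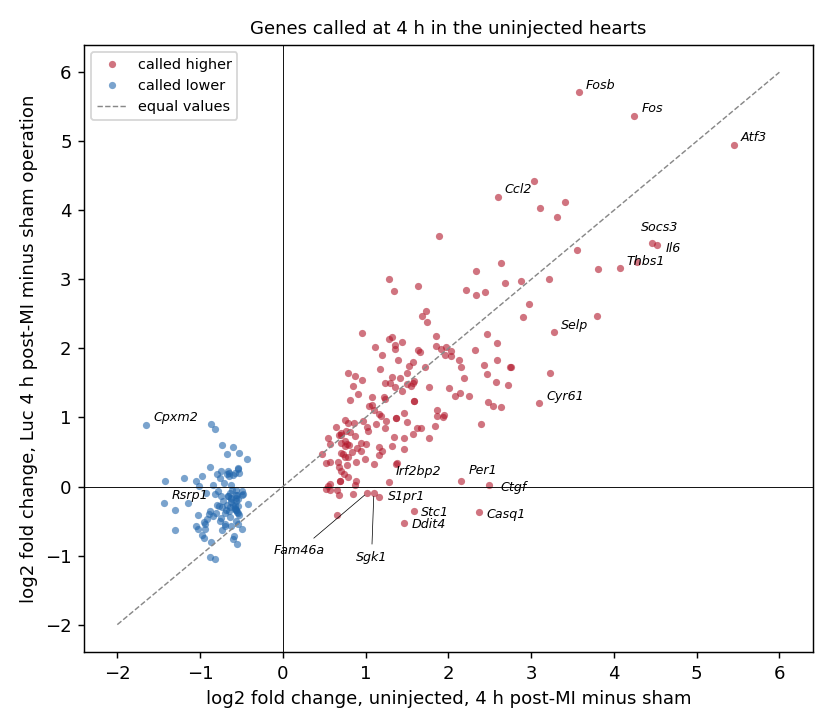
Log2 fold change of each gene called at 4 h in the uninjected hearts (x axis) against its value in Luc-injected infarcts minus sham operation (y axis), 1 point a gene, red for genes called higher and blue for genes called lower. Of the rises, 181 of 193 lie above 0 on the y axis, while the falls scatter around a median of -0.24. The dashed line marks equal values.

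For some members the 4 h value was small beside that at 24 h. The 24 h comparison uses the same sham libraries, so its values are given only side by side. Hspa1b had log2 fold changes of 3.31 and 6.77 at 4 h and 24 h, Il1b of 2.21 and 5.74, Timp1 of 1.02 and 7.11 and S100a9 of 2.54 and 8.22. Others had their larger value at 4 h, such as Fos (4.25 and 2.68), Egr1 (3.03 and 1.79), Zfp36 (3.22 and 1.98) and Nr4a1 (2.90 and 1.28). Atf3 had 5.45 and 5.27, Socs3 4.46 and 4.59 and Il6 4.52 and 4.49. Among the falls, Kcnj2 had -0.97 and -1.58, whereas Rsrp1 had -1.44 and -0.52. The differences between 4 h and 24 h were not tested.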

How the data were processed

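RNA-seq libraries were made from left ventricle, 1 library per heart. Per the labels and methods, the authors aligned reads to mm10 with STAR, quantified RefSeq transcripts by expectation maximization and normalized by TMM. The deposited CPM values are not counts, and each table was normalized on its own. Per the labels the kit is stranded, whereas the methods name another, so strand in counting is taken as unknown. The second table holds CPM + 1, from which 1 was subtracted.

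CPM was tested as log2(CPM + 1) with limma 3.58.1 in R 4.3.3 (Python 3.11, pandas 2.3.3 and numpy 2.4.6 for tables), with a mean-variance trend and 1 mean per group over all libraries of the table, for genes whose mean reached 1 CPM. Fold changes are on that scale and understate changes of genes at low levels. p-values were adjusted by Benjamini-Hochberg over all genes tested, and called means an adjusted p (q) under 0.05. The code was tested on simulated data. Below 1 CPM, 82.7% of values came out as whole reads (within 0.02) when divided by the smallest value of their library, and limma-voom on reads estimated that way called 230 genes.

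The comparison, the members and the 69 gene lists were chosen with earlier results of these data known. Of 1683 genes in the lists, 1636 are listed and 1543 were tested. Named genes are the 15 largest rises and falls among called genes whose mean reached 10 CPM and whose groups did not overlap, up to 4 called members per list (the smallest p where none is called), marker genes, and members named for not passing. Genes outside this rule, including those of the 3 classes defined from the falls and those with differing values in the second table, were named after their values were seen. Alternatives were pseudocount, level filter, scaling, library set, weights, block and leaving out each library. Columns of the other injected groups entered only the spread and the level limit that set which genes were tested.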

Additional observations from a re-analysis of the deposited data

Results flagged for a closer look

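In the group of 4 Luc-injected infarcts, each of 129 named genes was searched for a single library far from the other 3 by Dixon's test at the 95% level, and 3 had one, where chance gives about 1 in 20. Cebpd was at 20.5 CPM in replicate 1 against 15.3 to 16.1 CPM in the others. Gpihbp1, which binds lipoprotein lipase on capillaries, was at 81.9 CPM in replicate 1 against 63.3 to 64.1 CPM. Kcne4 was at 11.5 CPM in replicate 3 against 9.19 to 9.40 CPM. Groups of 3, including both uninjected groups, were not searched.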

How the results depend on the processing

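The main limits are 3 libraries a group, a control label that leaves the operation unclear, bulk tissue, and a table without genes silent in any library. Against 296 calls (194 higher, 102 lower), the 6 libraries alone gave 705 (345 and 360), array weights 2500 (1030 and 1470) and the mouse letter as replicate block 117 (105 and 12). Equal totals gave 173 lower and a mean of at least 10 CPM 42 lower. Leaving out 1 library gave 105 (without sham H) to 560 (without 24 h G) calls, 99 to 277 higher and 6 to 283 lower; the cause was not tested. Of these, 94 rises and 6 falls were called in all 10 such fits. Other settings (a pseudocount of 0.1, no level filter, no trend, median-ratio scaling, limma-voom) kept the total within 1.5 times. In the second comparison, 194 calls became 596 with its 6 libraries alone and 52 to 325 when 1 library was left out. Shared letters do not pair the samples by any label, and the deviations of same-lettered samples correlated at 0.125 (4 h D and sham D), 0.345 (4 h D and 24 h D), 0.015 (4 h C and 24 h C), -0.049 (sham D and 24 h D) and -0.057 (sham H and 24 h H). The second table's numbers gave 0.04 and 0.052. Of 2009 values of the 101 called named genes under alternatives, 1667 kept the call, 342 lost it and 0 changed sign; 39 genes kept it throughout. The values that changed sign were those of Myl1, not called, at -0.173 under the block and -0.081 to 0.735 when 1 library was left out. Of 1534 counts of list members, 210 moved by over 1.5 times.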

Other observations

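Of the 194 genes that rose, 103 belonged to one of the lists and 91 to none, and of the 102 that fell 58 belonged to neither a list nor a class defined from them.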
